A study of Mus musculus with 4 samples.

Results

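The replication-dependent histone genes are described here in cortex taken from mice at embryonic day 16.5. Members were all genes of the deposited expression table whose symbol starts with Hist1h, Hist2h, Hist3h or Hist4h. The rule used names only and no measured value, and it found 63 genes of 22770. Of these, 6 encode the linker histone H1, 17 encode H2A, 17 encode H2B, 11 encode H3 and 12 encode H4. One of them, Hist3h2bb-ps, carries a pseudogene symbol.

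The study sequenced RNA from 4 cortex libraries. A pair came from wild-type littermates and a pair from Pax6 Sey/Sey embryos, which carry the small eye allele of the transcription factor gene Pax6 on both chromosomes in every cell. Both groups had a mixed C57BL/6J, 129S6 and CD1 background, and the labels give no further treatment. Nothing in the labels says that each library came from a separate embryo, so the p-values measure only the spread between these libraries, which may be technical. Levels are FPKM, fragments scaled to transcript length and to the mapped fragments of the library, as deposited.

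Core histones H2A, H2B, H3 and H4 form the octamer around which DNA wraps, and H1 binds the DNA between octamers. The replication-dependent genes supply these proteins when DNA is copied in S phase. Most lack introns, and they sit in clusters that share cell-cycle control through the coactivator NPAT. Their messenger RNAs typically end in a short conserved stem-loop in place of a poly(A) tail. The stem-loop-binding protein SLBP holds this structure during processing and translation, and the RNAs are degraded when replication stops. Some of these genes can also give polyadenylated RNA from a site beyond the stem-loop. Neurons that have left the cell cycle rely on replication-independent variants for new histone.

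The stem-loop was sought in the GENCODE M21 transcripts (build GRCm38) of the 61 members that have a model there, because it is the element that sets these RNAs apart. Hist1h2bh and Hist1h2bm had no model. The pattern searched, on the transcript strand only, was 16 bases long. It fixed the opening GG, the closing CC, 3 T around the loop and the AG that follows the loop, and left the other bases free. It was found in 41 of the 61 members, and in all 41 the stem could pair fully. The same pattern lies in 384 of 21901 annotated protein-coding genes (1.75%), these members included. The 41 sites held 8 distinct sequences. The form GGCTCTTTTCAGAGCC was carried by 23 members, and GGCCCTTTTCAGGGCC by 6, all H4 genes. The sites below show the range of forms, with the stem-loop in capitals and 5 flanking bases on each side.
Hist3h2ba: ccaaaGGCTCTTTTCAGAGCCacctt
Hist3h2a: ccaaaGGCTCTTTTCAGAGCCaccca
Hist1h1c: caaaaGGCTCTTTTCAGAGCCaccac
Hist2h2aa2: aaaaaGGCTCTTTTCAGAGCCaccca
Hist1h3c: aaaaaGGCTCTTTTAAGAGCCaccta
Hist1h3g: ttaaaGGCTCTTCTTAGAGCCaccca
Hist1h4c: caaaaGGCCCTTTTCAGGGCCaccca
Hist1h4i: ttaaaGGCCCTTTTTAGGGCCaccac
Hist1h4j: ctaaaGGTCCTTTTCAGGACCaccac
The linker, H2A and H2B genes at the top carried one identical stem-loop, although they lie on 3 chromosomes and encode 3 kinds of histone. The H4 sites differed from them in the stem. Of the 20 members with a model but no match, 14 have a single-exon model shorter than the members' median of 539 bases, and an element beyond the annotated end would not be seen here.

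Most of the 63 genes were listed at low levels. The median member had a mean of 0.568 FPKM over the 4 libraries. A mean of at least 1 FPKM was reached by 22 members and at least 5 FPKM by 12. All 4 libraries were above 0 for 27 members, whereas 36 were listed at 0 in at least 1 library, including 8 at 0 in both wild types and 2 at 0 in both mutants. From the steps between low values, 1 fragment on 1 kb was worth 0.114 and 0.141 FPKM in wild type against 0.122 and 0.0928 FPKM in the mutant. In estimated fragments, 45 members had 10 fragments or fewer in every library, 26 had 3 or fewer, and 6 exceeded 50 in a library. These fragment numbers take each gene's length into account, and also the worth of a fragment on short genes, which below 430 bases was 2.41 times what length alone gives. They are estimates: 59 of 86 low member values (68.6%) came within 0.15 of a whole fragment. That share is not an independent check, because the scale was set on genes of the whole series, some members included. The factor of 2.41 rests on 7 of 28 low values that lay at the most frequent step.

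Across the series, summed FPKM lay between 579698 and 593256 per library and 13682 to 13875 genes reached 1 FPKM. Pax6 RNA was at 28.8 and 27 FPKM in wild type against 101 and 120 FPKM in the mutant. The small eye allele is a point mutation that leaves the transcript in place, so this level does not check the labels. Tbr1, a transcription factor gene of early cortical neurons, was present in all 4 libraries, at 59.3 to 117 FPKM. In a limma fit over all 15399 genes that reached 0.5 FPKM in no fewer than 2 libraries, 536 genes (3.48%) differed at an adjusted p under 0.05, 311 of them (2.02%) higher in the mutants and 225 (1.46%) lower. The count was 7 without wild type 1, 13 without wild type 2, 59 without mutant 1 and 27 without mutant 2.

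A single HIST3 locus on chromosome 11 dominated the histone signal. Its 3 genes, Hist3h2ba, Hist3h2a and Hist3h2bb-ps, held 70.7% and 60.7% of the members' summed FPKM in the wild types and 61.4% and 59.5% in the mutants. Their annotated models lie between positions 58948920 and 58956830. Hist3h2ba, an H2B gene at 11:58948920-58949533, was the highest member, at 158 and 131 FPKM in wild type against 135 and 151 FPKM in the mutant. The mutants lay inside the wild-type range, and the log2 difference was -0.01 (SE 0.11, 95% interval -0.30 to 0.27, limma adjusted p = 0.973). Hist3h2a, an H2A gene at 11:58954685-58956830, was at 47.3 and 46.5 FPKM in wild type against 47.5 and 47.2 FPKM in the mutant. Its log2 difference was 0.01 (SE 0.06, 95% interval -0.14 to 0.17, limma adjusted p = 0.931). An annotated exon of Trim17 overlaps Hist3h2a on its strand and one of Gm44313 on the other, and reads from these genes could not be separated here.

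**Figure D1:**
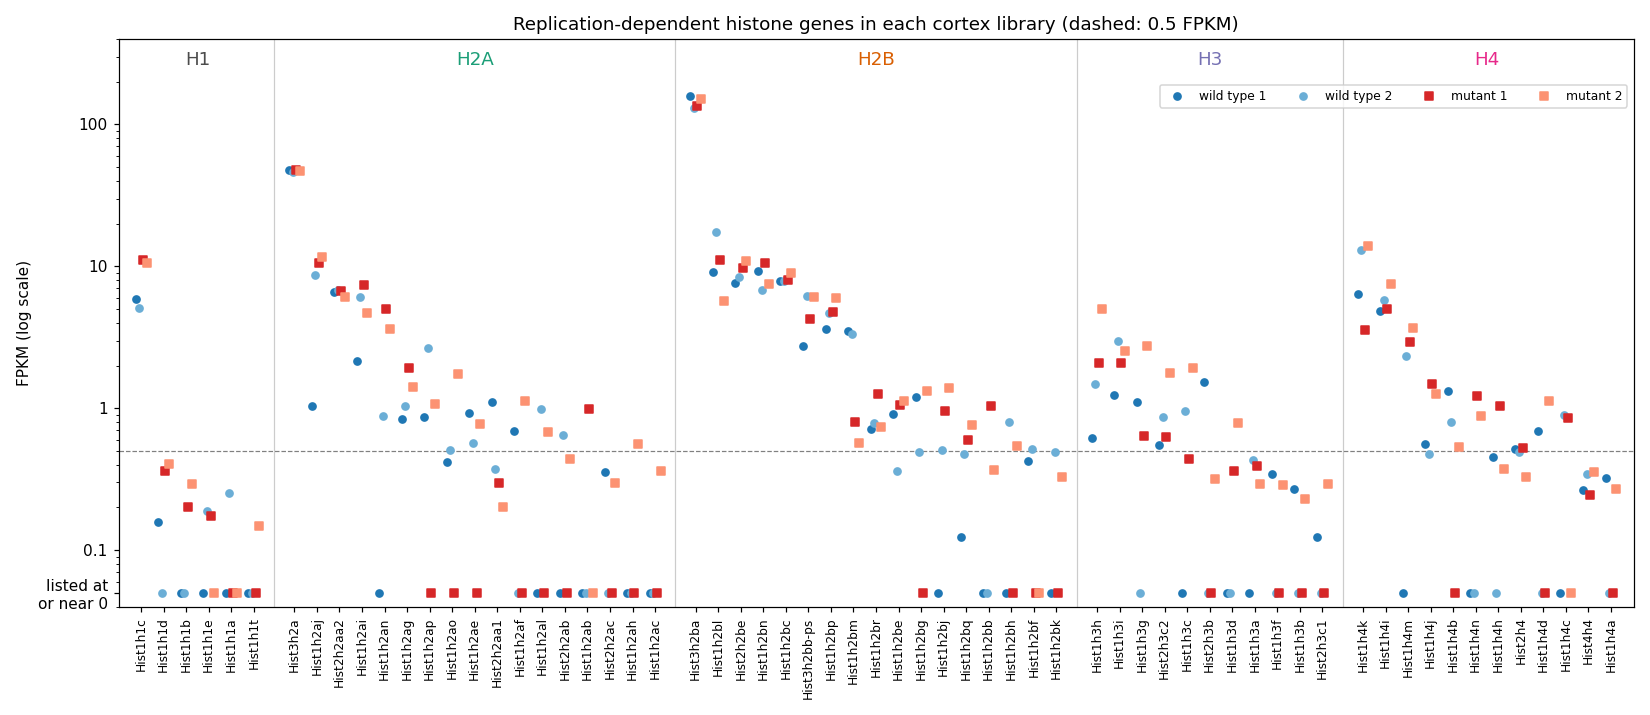
FPKM (log scale) of all 63 histone genes in the 2 wild-type libraries (blue circles) and the 2 mutant libraries (red squares), by histone class and in order of mean level. Values below the scale are drawn at the bottom line, and the dashed line marks 0.5 FPKM. Hist3h2ba, at 131 to 158 FPKM, and Hist3h2a, at 46.5 to 47.5 FPKM, stand above the rest, and in the H1 column both Hist1h1c squares lie above both circles.

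Of the 40 members that passed the level filter, 1 was called higher in the mutants (2.5%, against 2.02% of all tested genes) and 1 lower (2.5%, against 1.46%). Both shares are near the background. An unadjusted limma p under 0.05 was reached by 8 of the 40 (20%, against 19.5%). The groups did not overlap with the mutants above in 14 (35%, against 25.8% of all tested genes) and with the mutants below in 2 (5%, against 25.8%). The log2 differences of the 40 had a median of 0.22, from -1.74 to 2.51, and 27 were above 0. Over all tested genes the median was 0.00, with 7715 above 0. The median of the members was 0.11 without wild type 1, 0.36 without wild type 2, 0.48 without mutant 1 and 0.05 without mutant 2. Over all 63 members, including the 23 that did not pass the filter, the mutants were above both wild types in 18 (28.6%, against 22% of all 22770 genes) and below both in 4 (6.35%, against 21%), and the groups overlapped in 41.

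The summed H1 level was above both wild types in both mutants, and Hist1h1c made up most of it. This linker histone gene lies at 13:23738808-23740367. It stood at 5.85 and 5.07 FPKM in wild type against 11 and 10.5 FPKM in the mutant. Both mutants were above both wild types by a margin wider than the spread within either group. The estimated fragments were 84 and 59 against 150 and 190. The log2 difference was 0.92 (SE 0.13, 95% interval 0.59 to 1.26, limma adjusted p = 0.0357). The adjusted p ranged from 0.0327 to 0.209 over 12 alternative settings, and the call held in 5 of them, while the difference stayed between 0.83 and 1.02. It was lost without any one of the 4 libraries, with adjusted p of 0.163 without wild type 1, 0.209 without wild type 2, 0.149 without mutant 1 and 0.177 without mutant 2. With the replicate number as a block it was 0.0553. The authors' deposited table gives a mutant over wild-type ratio of 1.97 for Hist1h1c with a p of 0.235. In bulk tissue, a change in the number of cells of a type cannot be told apart from a change in RNA per cell.

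The other 5 H1 genes were near the floor of detection. Hist1h1d was at 0.159 and 0 FPKM in wild type against 0.364 and 0.402 FPKM in the mutant. For Hist1h1b both wild-type values were listed at 0, and the mutant values were 0.203 and 0.294 FPKM. Neither passed the filter, so neither was tested. Hist1h1a, Hist1h1e and the testis gene Hist1h1t overlapped between groups and did not exceed 0.253 FPKM. Hist1h1c held 93.7% of the class signal. The H1 sum was 5.76 ± 0.349 FPKM in the wild types and 11.55 ± 0.312 FPKM in the mutants (SD, n = 2 each).

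H2A genes other than Hist3h2a gave unequal wild-type libraries. The class sum was 62.32 and 75.62 FPKM in wild type against 80.28 and 81.9 FPKM in the mutant, a log2 ratio of 0.23. Without Hist3h2a the sums were 15 and 29.1 FPKM in wild type against 32.7 and 34.7 FPKM in the mutant. Wild type 1 was lowest in both, and without that library the ratio of class sums was 0.10. Of the 11 tested H2A genes, 0 were called by limma and 1 had an unadjusted p under 0.05, against 19.5% of all tested genes.

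Hist1h2aj was at 1.04 and 8.62 FPKM in wild type against 10.6 and 11.7 FPKM in the mutant. Wild type 2 was nearer to the mutants than to wild type 1, and the log2 difference was 1.63 (SE 0.82, limma adjusted p = 0.355). It was 0.35 without wild type 1 and 2.92 without wild type 2. Its p in the authors' deposited table, 0.0941, was the lowest of any member there. Hist2h2aa2 was flat, at 6.57 and 6.82 FPKM in wild type against 6.66 and 6.07 FPKM in the mutant (log2 difference -0.07, SE 0.13, limma adjusted p = 0.82). Every 50-base word of its model also occurs in another annotated gene, so its reads could belong to a copy. Hist1h2an had the largest log2 difference of the tested members, 2.51 (SE 0.52, limma adjusted p = 0.0811). It was listed at 0 and 0.885 FPKM in wild type against 5 and 3.61 FPKM in the mutant, which is about 0 and 1 fragments against 6.7 and 6.3. Its difference ran from 1.78 without wild type 1 to 3.25 without wild type 2, and was 3.79 with a pseudocount of 0.1 and 1.94 with a pseudocount of 1.

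The H2B class had the highest sum, with little difference between genotypes. Its sums were 205.3 and 190 FPKM in wild type against 189.3 and 202.7 FPKM in the mutant, a log2 ratio of -0.01. Hist3h2ba made up 73% of this. The remaining H2B genes summed to 47.2 and 59.3 FPKM in wild type against 54 and 52.1 FPKM in the mutant, so the groups overlapped with and without it. Hist1h2bm was the one H2B gene of 14 tested that was called.

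Hist1h2bm, at 13:21722098-21722478, was lower in the mutants. It stood at 3.5 and 3.35 FPKM in wild type against 0.796 and 0.566 FPKM in the mutant. The log2 difference was -1.74 (SE 0.22, 95% interval -2.29 to -1.19, limma adjusted p = 0.0297). These levels correspond to about 4.9 and 3.8 fragments against 1 and 0.96, so a handful of fragments set the contrast. Over 12 alternative settings the adjusted p ranged from 0.0275 to 0.207 and the call held in 6. It was lost without any one library, with adjusted p of 0.185 without wild type 1, 0.207 without wild type 2, 0.0898 without mutant 1 and 0.15 without mutant 2. The authors' deposited table gives a ratio of 0.199 with a p of 0.375.

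Other abundant H2B genes did not pass the test. Hist2h2be, at 3:96221119-96223738, was at 7.67 and 8.38 FPKM in wild type against 9.65 and 10.9 FPKM in the mutant. Both mutants were above both wild types, with a log2 difference of 0.34 (SE 0.12, 95% interval 0.02 to 0.66, limma adjusted p = 0.238). None of its 50-base words occurs in another annotated gene, and it has 160 to 320 estimated fragments per library, which makes it one of the better-measured members. Hist1h2bl was at 9.09 and 17.5 FPKM in wild type against 11.1 and 5.66 FPKM in the mutant. Its groups overlapped, with a log2 difference of -0.64 (SE 0.42, limma adjusted p = 0.475) that ran from -1.10 without mutant 1 to -0.18 without wild type 2 or mutant 2. The 6 members above 50 fragments in a library were Hist3h2ba, Hist3h2a, Hist2h2be, Hist1h1c, Hist1h2bc and Hist1h2be, and Hist1h2be was above 50 in mutant 2 only. The Hist1h2be estimate uses all its annotated exons, 4446 bases, while its longest model has 2506, so it may be too high. Exons of Hist1h1e and Gm11398 also overlap Hist1h2be on its strand. Hist1h2bc was at 7.9 and 7.91 FPKM against 8 and 8.92 FPKM, and Hist1h2be at 0.904 and 0.362 FPKM against 1.05 and 1.12 FPKM. These 2 genes were chosen here for their depth after their values were seen, and neither passed the test (limma adjusted p = 0.739 and 0.444).

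H3 genes were low throughout, and 1 mutant library set the class difference. The sums were 5.774 and 6.707 FPKM in wild type against 6.634 and 16.19 FPKM in the mutant, a log2 ratio of 0.87. Without mutant 2 the ratio was 0.09. No H3 gene reached a mean of 5 FPKM, and 0 of 5 tested were called by limma. An unadjusted limma p under 0.05 was reached by 1 of the 5, against 19.5% of all tested genes. That gene, Hist1h3h, was at 0.614 and 1.48 FPKM in wild type against 2.09 and 5.04 FPKM in the mutant (log2 difference 1.35, SE 0.47, limma adjusted p = 0.217). Mutant 2 was highest and wild type 1 lowest, without overlap between groups, and the difference ran from 0.80 without mutant 2 to 1.90 without mutant 1. Hist1h3i was at 1.23 and 2.97 FPKM in wild type against 2.09 and 2.52 FPKM in the mutant, and Hist1h3g was at 1.11 and 0 FPKM against 0.634 and 2.75 FPKM. In both the groups overlapped, with limma adjusted p of 0.826 and 0.495.

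H4 genes varied as much within as between groups. The sums were 15.27 and 24.23 FPKM in wild type against 16.87 and 30.29 FPKM in the mutant. In each genotype, 1 library was well above the other. The log2 ratio was 0.26, and it was -0.04 without wild type 1, 0.63 without wild type 2, 0.62 without mutant 1 and -0.23 without mutant 2. Hist1h4k, which held 42.6% of the class, was at 6.34 and 13.1 FPKM in wild type against 3.57 and 14 FPKM in the mutant (log2 difference -0.33, SE 0.66, limma adjusted p = 0.834). Hist1h4i was at 4.81 and 5.8 FPKM in wild type against 5 and 7.52 FPKM in the mutant (log2 difference 0.20, SE 0.23, limma adjusted p = 0.692). Hist1h4m was listed at 0 and 2.35 FPKM in wild type against 2.95 and 3.7 FPKM in the mutant (log2 difference 1.67, SE 0.82, limma adjusted p = 0.347). That difference was 0.42 without wild type 1, 2.93 without wild type 2 and 2.78 with a pseudocount of 0.1. Of the 9 tested H4 genes 0 were called, and 2 had an unadjusted limma p under 0.05, against 19.5% of all tested genes.

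**Figure D2:**
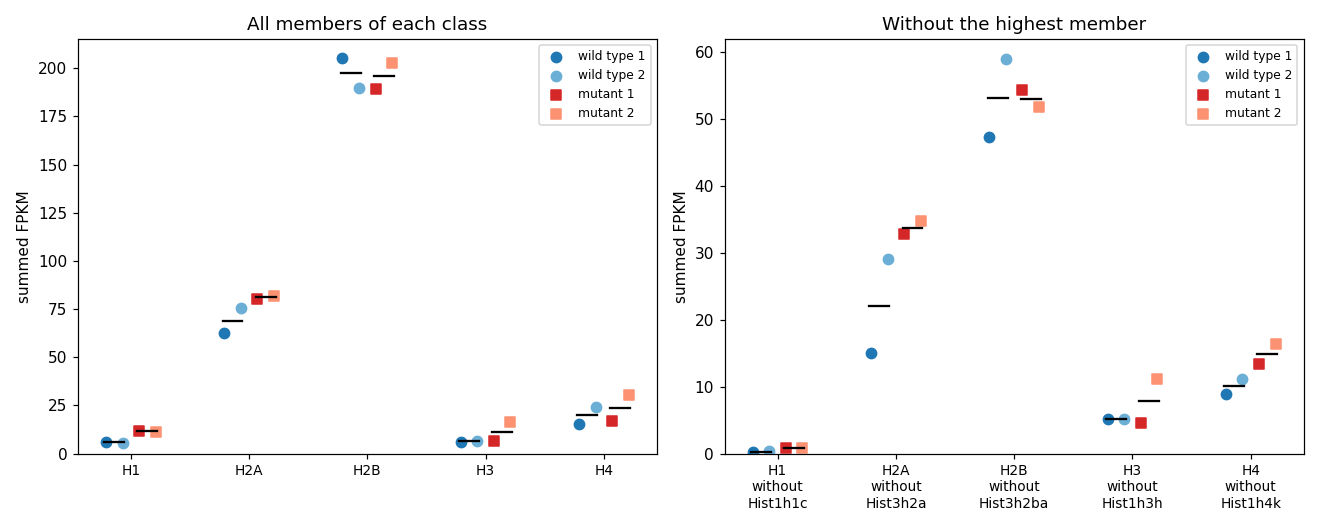
Summed FPKM of each histone class per library, with bars at the group means (n = 2 each), for all members (left) and without the highest member of the class (right). H1 separates the genotypes, at 6.005 and 5.511 against 11.77 and 11.33 FPKM, H2B does not, and the H3 mean of the mutants rests on 1 library at 16.19 FPKM.

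The annotated end of the transcript differed among members. In 20 the model ends within 100 bases of the stem-loop, and their median level was 0.593 FPKM with a highest of 6.529. In 13 the model runs on past the stem-loop and holds an AATAAA, the main poly(A) signal, anywhere after it. Their median was lower, 0.465 FPKM, but they include Hist3h2ba (143.7 FPKM), Hist3h2a and Hist1h1c. Past the stem-loop, the models of these 3 genes extend by 169, 1643 and 840 bases, with the last AATAAA 27, 34 and 26 bases from the end. In Hist1h2be, Hist1h2ac and Hist1h1d of the same group, the last AATAAA lies 697, 315 and 203 bases from the end. Another 8 run on with no AATAAA (median 0.446 FPKM). The 19 without the stem-loop and without an AATAAA in their last 60 bases had a median of 2.2 FPKM. Many of these models are shorter than 430 bases, where 1 fragment is worth more FPKM than length alone gives. Hist2h2be, also without a stem-loop in its 2620-base model, has an AATAAA near its end and stood at 9.15 FPKM. Of the 19 without either element, 10 had a mean of at least 1 FPKM. The sources used here do not say whether RNA was selected by its poly(A) tail before sequencing, so the FPKM is that of RNA that entered the libraries. The sum over the 20 members that end at the stem-loop was 17.33 and 22.09 FPKM in wild type against 23.31 and 29.5 FPKM in the mutant, and over the 13 run-on members 215.1 and 184.5 FPKM against 197.5 and 213.6 FPKM. The groups overlapped in the second set and not in the first.

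**Figure D3:**
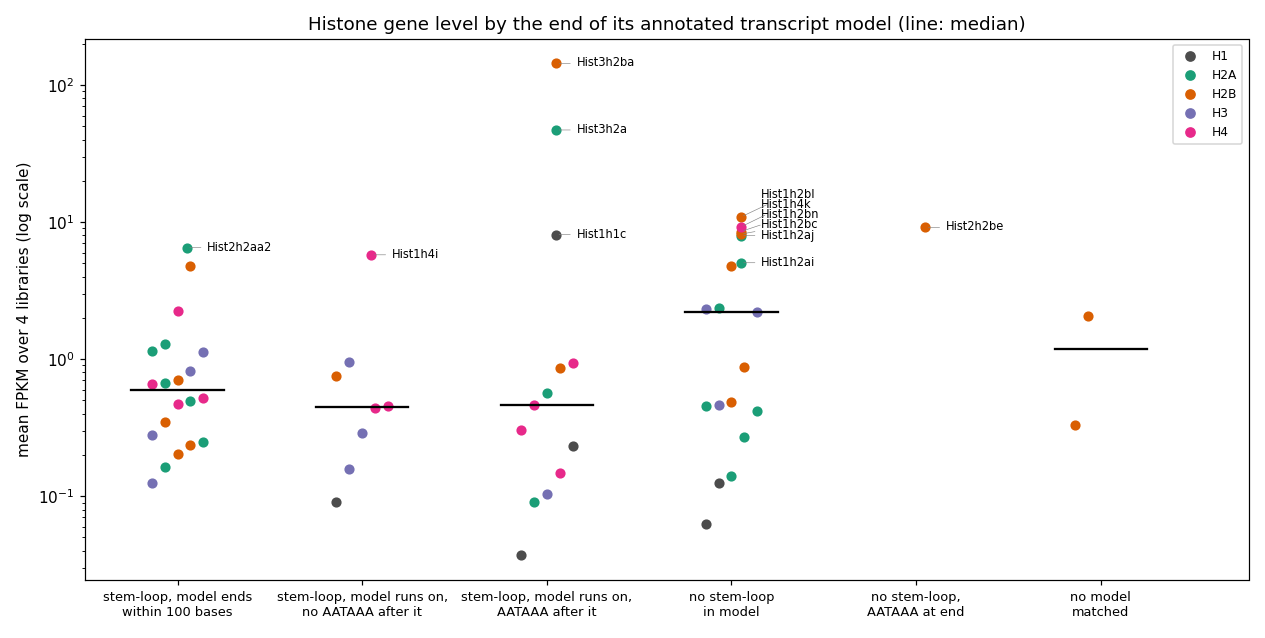
Mean FPKM over the 4 libraries (log scale) of each histone gene, grouped by whether its annotated model holds the stem-loop and how it ends, with a line at the median of each group of more than 1 gene. Named genes have a mean of at least 5 FPKM. Hist3h2ba and Hist3h2a lie far above the other members, both among models that run on with an AATAAA after the stem-loop.

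Listed levels differed between the clusters. On chromosome 13, 18 members between 21715763 and 21837530 had a median mean of 2.23 FPKM, and 26 between 23531050 and 23764358 had a median of 0.341 FPKM. Many models in the first stretch are shorter than 430 bases, where 1 fragment is worth 2.41 times what length alone gives. FPKM there is thus not on an equal footing with that of longer genes. The first stretch summed to 39.53 and 72.67 FPKM in wild type against 65.6 and 71.68 FPKM in the mutant, so wild type 1 was the low library there. The second summed to 22.57 and 19.24 FPKM in wild type against 26.35 and 34.12 FPKM in the mutant, with both mutants higher, and Hist1h1c lies in it. The 9 HIST2 genes on chromosome 3 summed to 18.43 and 17.59 FPKM against 17.75 and 20.6 FPKM. Near-identical copies limit how reads can be placed: in 33 members over 50% of the 50-base words of the model also occur in another annotated gene, and in 13 over 90% do. For Hist1h1c the share was 8.54% and for Hist3h2ba 22.1%. It was 85.8% for Hist1h2an, 93.1% for Hist1h2aj, 93.9% for Hist1h3h and 89.8% for Hist1h4m. The called member Hist1h2bm has no model, so its share is not known.

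Several H2A and H2B genes share a promoter region, head to head. Starts of opposite genes lie 168 to 268 bases apart in 7 pairs. The Hist1h2an and Hist1h2bp pair has 240 bases between starts. Hist1h2an was at 0 and 0.885 FPKM in wild type against 5 and 3.61 FPKM in the mutant, while Hist1h2bp was at 3.59 and 4.65 FPKM against 4.8 and 5.98 FPKM. In the Hist1h2ai and Hist1h2bl pair, with 229 bases between starts, mutant 2 was the lowest library for Hist1h2bl, at 5.66 FPKM, and the second lowest for Hist1h2ai, at 4.7 FPKM. In wild type the H2B gene was the higher per length in both of these pairs. Hist1h2ag, at 0.843 and 1.03 FPKM in wild type, was listed above its partner Hist1h2bj, at 0 and 0.511 FPKM. That is about 2.1 and 2.1 fragments for Hist1h2ag against 0 and 1 for Hist1h2bj. Of the words of their models, 78.9% and 59.4% also occur in another annotated gene. With so few fragments, partly of uncertain origin, whether the order differs between pairs cannot be decided.

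Promoters are given for the called members and for the most abundant one. They are RefSeq windows (GRCm38.p6) from 250 bases before to 50 bases after the start, and 55 of the 63 members matched. Capitals mark every match on either strand of 4 short motifs: the CCAAT box, the TATA box searched as TATAAA, the ATTTGCAT octamer known from H2A and H2B genes, and AAACACA, known from H1 genes. A match on the other strand appears as its reverse complement. The windows are 13:23738557-23738856 for Hist1h1c, 13:21721794-21722093 for Hist1h2bm and 11:58948661-58948960 for Hist3h2ba, all on the plus strand.
Hist1h1c: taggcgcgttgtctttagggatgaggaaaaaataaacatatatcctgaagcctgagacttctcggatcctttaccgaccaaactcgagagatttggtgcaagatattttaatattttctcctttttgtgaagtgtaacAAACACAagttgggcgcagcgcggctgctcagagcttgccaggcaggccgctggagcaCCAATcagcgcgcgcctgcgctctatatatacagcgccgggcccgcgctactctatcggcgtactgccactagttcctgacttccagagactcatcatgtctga
Hist1h2bm: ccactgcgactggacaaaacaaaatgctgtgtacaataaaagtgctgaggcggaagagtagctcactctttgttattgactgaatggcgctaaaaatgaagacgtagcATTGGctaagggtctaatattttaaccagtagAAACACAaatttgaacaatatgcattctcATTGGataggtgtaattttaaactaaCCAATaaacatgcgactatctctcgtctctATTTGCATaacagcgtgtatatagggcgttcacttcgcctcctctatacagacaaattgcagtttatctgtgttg
Hist3h2ba: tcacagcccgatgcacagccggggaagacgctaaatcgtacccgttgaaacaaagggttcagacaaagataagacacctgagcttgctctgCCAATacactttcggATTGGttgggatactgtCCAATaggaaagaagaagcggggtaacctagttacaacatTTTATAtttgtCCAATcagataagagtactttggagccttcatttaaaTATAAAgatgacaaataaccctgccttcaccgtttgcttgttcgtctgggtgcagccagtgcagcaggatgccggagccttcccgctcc
Hist1h1c held 1 CCAAT, 54 bases before the start, and 1 AAACACA 112 bases before it. Hist1h2bm held 3 CCAAT, an octamer 25 bases before the start and an AAACACA 110 bases before it. Hist3h2ba held 4 CCAAT, and TATAAA at 39 and 87 bases before the start. CCAAT was in 47 of the 55 member windows (85.5%), against 37.9% of all 27025 promoter windows. It was in every H1, H2A, H2B and H3 window matched but in only 3 of 11 H4 windows (27.3%). TATAAA was in 54.5% of member windows, against 14.2% of all. The octamer was in 6 of 15 H2A and 4 of 14 H2B windows and in none of the H1, H3 and H4 windows (all promoters, 1.75%). AAACACA was in 5 of 6 H1 windows (all promoters, 7.14%). These are letter matches in a fixed window and do not show binding.

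The factors that make histone mRNA and its 3′ end were mostly flat. Of 19 listed, all tested, 1 was higher by limma (against 2.02% of all tested genes) and 0 lower (against 1.46%). The median log2 difference was 0.05. The gene that rose was Slbp, at 23.1 and 23.7 FPKM in wild type against 32 and 34.8 FPKM in the mutant (log2 difference 0.50, SE 0.08, limma adjusted p = 0.0454). Npat was at 8.65 and 8.3 FPKM in wild type against 8.79 and 10.2 FPKM in the mutant (log2 difference 0.15, limma adjusted p = 0.578). None of the 8 listed genes of histone mRNA decay was called (median 0.10). In so short a list, 0 is near the 3.48% called among all tested genes. The helicase gene Upf1 differed by 0.13 and the uridylyltransferase gene Zcchc11 by 0.20 on the log2 scale, with limma adjusted p of 0.432 and 0.233. The Slbp call was lost without any one of the 4 libraries.

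Among 18 histone chaperones and import factors, 2 rose (against 2.02% of all tested genes) and 0 fell (against 1.46%). The median was 0.15. Chaf1a, a subunit of the chromatin assembly factor that loads histones behind the replication fork, was at 4.91 and 5.33 FPKM in wild type against 9.37 and 9.88 FPKM in the mutant (log2 difference 0.85, SE 0.12, limma adjusted p = 0.0386). Nasp, a histone chaperone, was at 153 and 155 FPKM in wild type against 195 and 198 FPKM in the mutant (log2 difference 0.35, SE 0.05, limma adjusted p = 0.0372). Neither was called without any one of the 4 libraries.

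Of 11 tested genes listed as replication-independent histone variants, 4 rose (against 2.02% of all tested genes) and 0 fell (against 1.46%). The median was 0.33. The 4 that rose included the linker variants H1f0 and H1fx. H1f0 was at 131 and 135 FPKM in wild type against 211 and 224 FPKM in the mutant (log2 difference 0.71, SE 0.06, limma adjusted p = 0.0134), and H1fx was at 27.1 and 29.8 FPKM against 40.9 and 39.4 FPKM (log2 difference 0.49, SE 0.08, limma adjusted p = 0.0484). The others were the H2A variants H2afx and H2afv. H2afx was at 46.9 and 53.1 FPKM in wild type against 79.4 and 81.3 FPKM in the mutant (limma adjusted p = 0.028). H2afv was at 59.9 and 64.2 FPKM against 92.5 and 111 FPKM (limma adjusted p = 0.0394). H2afx makes both kinds of transcript, with a stem-loop and with a poly(A) tail, so it is not purely replication-independent. None of the 4 was called without any one of the libraries. Summed over the 12 listed variants in the table, levels were 2589 and 2702 FPKM in wild type against 3100 and 3337 FPKM in the mutant, against 294.7 and 302 FPKM and 304.9 and 342.4 FPKM for all 63 replication-dependent genes. The H3.3 genes H3f3a and H3f3b, with means of 1188 and 796 FPKM over the 4 libraries, made up most of the variant sum, and several other variants were below Hist3h2ba, at 144 FPKM. Whether RNA was selected by its poly(A) tail is not stated, so these sums may not measure both kinds of gene equally.

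S phase genes had a larger median log2 difference than the histones. Of 28 listed, 14 rose (against 2.02% of all tested genes) and 0 fell (against 1.46%). The median was 0.71, and all 28 were above 0. Rrm2, a subunit of the enzyme that makes deoxyribonucleotides, was at 47.1 and 46 FPKM in wild type against 88.7 and 86.2 FPKM in the mutant (log2 difference 0.90, SE 0.06, limma adjusted p = 0.00783). The replicative helicase genes Mcm5 and Cdc45 and the primase gene Prim1 rose by 0.97, 0.91 and 0.75 on the log2 scale (limma adjusted p = 0.0188, 0.0281 and 0.0248). The difference between this list and the histones was not tested. Of the 63 histones, 45 had 10 estimated fragments or fewer in every library, and the added 0.5 FPKM shrinks differences of low genes. RNA selection is also not stated, so the medians of the lists are not on an equal footing. Leaving out any one of the 4 libraries left 0 of these genes called, and a fit without the mean-variance trend also called 0.

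**Figure D4:**
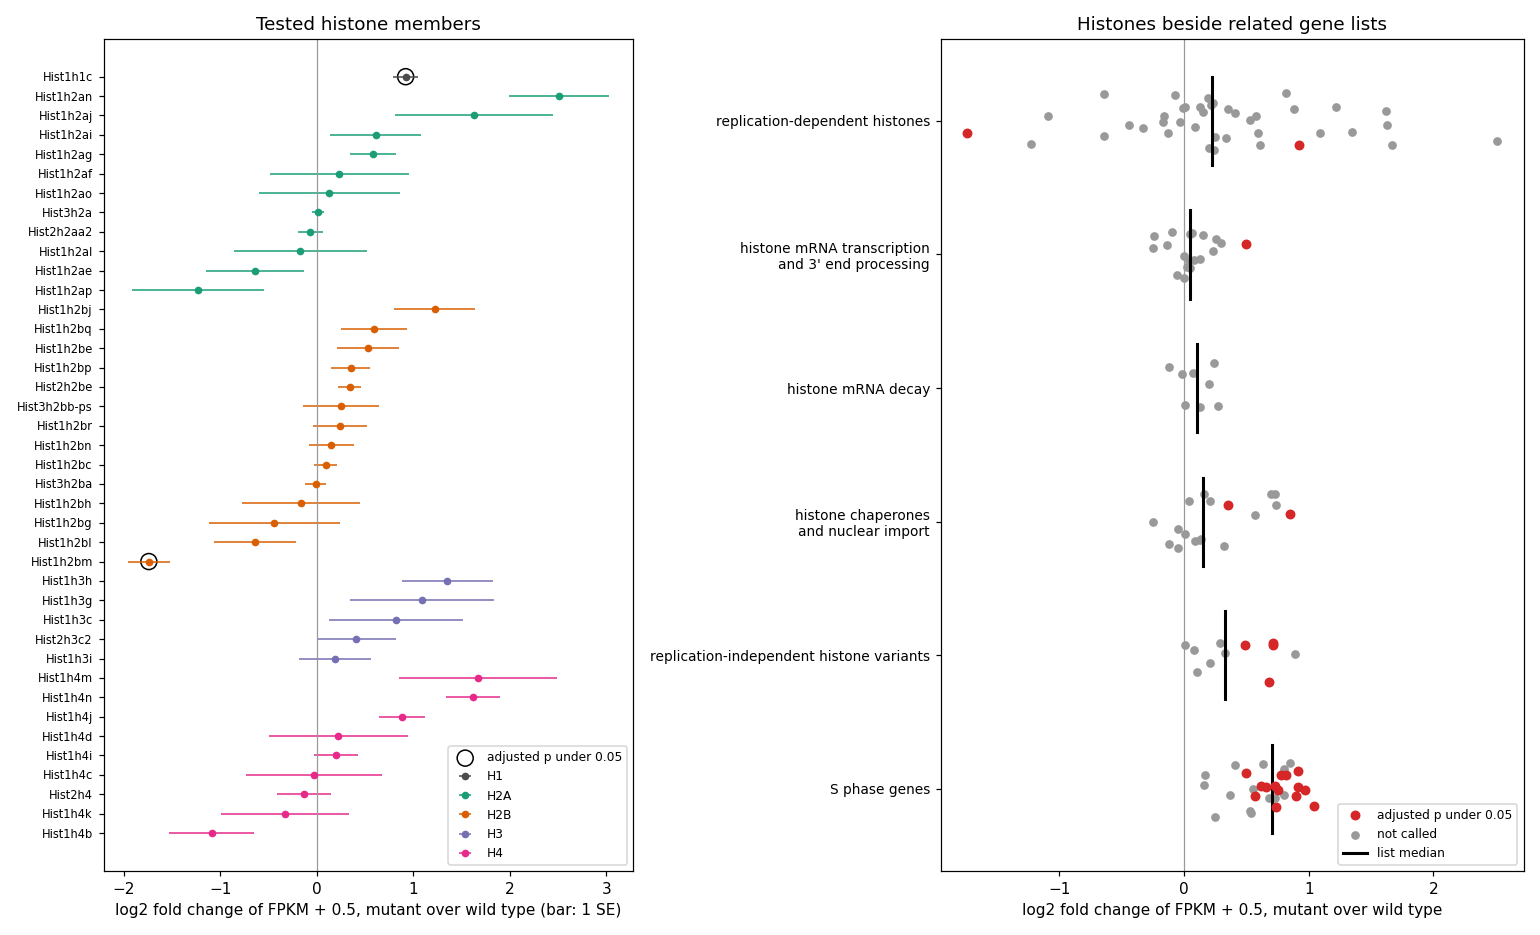
Left, log2 difference of FPKM + 0.5, mutant over wild type, with bars of 1 SE, for the 40 tested histone genes by class, and circles around the 2 called. Right, the same quantity for the histones and for 5 related lists, with called genes in red and a bar at each median. The S phase genes lie to the right of 0, with a median of 0.71, while the histones spread on both sides around 0.22.

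Markers of other cells moved beside these values. All 4 markers of proliferating cells were higher (median 0.97), with a summed 118 and 128 FPKM in wild type against 224 and 253 FPKM in the mutant. All 4 markers of ventral telencephalon and GABAergic cells were higher, at 105 and 86.9 FPKM against 577 and 659 FPKM, and the cortical markers Emx1, Tbr1, Neurod2 and Neurod6 were lower, with log2 differences from -0.87 to -0.73 (limma adjusted p from 0.0152 to 0.0224). Of 5 meningeal fibroblast markers 4 were tested and 0 called, but mutant 1 stood apart, at 26.5 FPKM summed against 3.59, 2.4 and 5.83 FPKM in wild types 1 and 2 and mutant 2, with none of the 5 at 0 in any library. The 5 endothelial markers summed to 38.5 and 38 FPKM against 56.1 and 45.1 FPKM. The 6 microglial summed to 18.3 and 22.9 against 19.3 and 16.9 FPKM, and the 8 erythroid to 1559 and 1729 against 1818 and 1749 FPKM. Of these endothelial, microglial and erythroid markers 0 were called, against 3.48% of all tested genes. The part of these cells in the histone values was not tested. Hist1h1c was at 10.5 FPKM in mutant 2 and at 11 FPKM in mutant 1, the library with the high meningeal sum.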

How the data were processed

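The authors deposited one table with FPKM per gene and library, group mean FPKM, a mutant over wild-type ratio and a p-value. Per the submitters' processing notes, TopHat2 2.0.9, Cufflinks 2.2.1 and edgeR were used with GRCm38.p4 and mm10. The sources used here do not state their roles, the strand setting, the RNA selection or the test behind the deposited p-value. The deposited ratio and p-value are quoted only as the authors'. FPKM are not counts, so no count test was run and depth was estimated from steps between low values.

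Members and lists were chosen with earlier results of these data known. Genes that reached 0.5 FPKM in no fewer than 2 libraries were tested on log2(FPKM + 0.5) with limma 3.58.1 (R 4.3.3; empirical Bayes with a mean-variance trend) and Benjamini-Hochberg adjustment over 15399 genes, threshold 0.05. Fold changes are on this scale, which understates changes of low genes. Intervals use the fit's 5.05 degrees of freedom. An exact permutation test of 2 against 2 libraries cannot go below p = 0.333, so none was used. No mean is given for single genes listed at 0. In simulated data with 15399 genes, the test recovered 38% of 2-fold and 78% of 4-fold changes, with 5 false calls of 108. The simulation used genes of all levels with normal noise, without whole fragments or shared reads. Its shares therefore do not describe the low histone genes.

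Named are the called members, the 3 highest per class, the largest change per class, up to 4 called genes per list (or its 2 highest), Slbp and Npat; others are said to be chosen afterwards or stand as examples of sequence, position or depth. Alternatives were other pseudocounts, filters, normalizations, no trend, a replicate block and each library left out. Some listed marker genes are not reported here.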

Additional observations from a re-analysis of the deposited data

How the results depend on the processing

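Hist1h1c and Hist1h2bm remained called with pseudocounts of 0.1 and 1, a filter at 1 FPKM, median centring and quantile normalization. Calls were fewer elsewhere, and the cause was not tested. Over all genes, 61 were called with no filter, 54 with no trend and 7 to 59 with 1 library left out, against 536. Histones called higher went from 1 to 0 with no filter, no trend, the replicate block or any library left out. Those called lower went from 1 to 0 with no filter, no trend or any library left out. The 3′ processing list went from 1 to 0 higher and the chaperones from 2 to 0 under no filter, no trend, the replicate block and each left-out library. The variants went from 4 to 1 with no filter and 0 with no trend or a library left out. The S phase genes went from 14 to 1 with no filter, 9 with the replicate block and 0 with no trend or a library left out. With 1 library left out, the lone library of its group is assumed to vary like the other group. Without its highest member, the log2 ratio of sums was 1.40 for H1 and 0.61 for H2A. For H1 these sums were 0.159 and 0.442 FPKM in wild type against 0.741 and 0.844 FPKM in the mutant, from 5 untested genes near the floor. For H2A, wild type 1 was the low library, at 15 FPKM. With a library left out, the ratio of whole class sums ran from 0.10 to 0.38 for H2A, from 0.09 to 1.38 for H3 and from -0.23 to 0.63 for H4. The histone median ran from 0.05 to 0.48. Signs reversed for Hist3h2ba with quantile normalization (0.01), and with 1 library left out for Hist3h2ba (from -0.15 to 0.13), Hist1h3i (from -0.31, without wild type 1, to 0.69), Hist1h4i (from -0.07, without mutant 2, to 0.47) and Hist1h4k (from -1.24 to 0.59, without mutant 1). The replicate numbers are not stated to pair samples, and same-numbered deviations correlated at 0.05, so the block carries only a shared number.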
